A study of Mus musculus with 12 samples.

Results

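The genes described are Ltf, Camp, Ngp, Lcn2, Mmp8, Mmp9 and Chil3, 7 genes whose products are stored in the secondary (specific) and tertiary (gelatinase) granules of neutrophils, measured in natural killer (NK) cells sorted from tumours. They were chosen by name, and all 7 were among the 27179 gene identifiers of the count table and among the 14182 genes that passed the filter on low counts. The study gave wild-type tumour-bearing mice cGAMP, a cyclic dinucleotide that activates the innate sensor STING, an antibody against the regulatory cytokine IL-35, or both. RNA of the sorted cells was sequenced at day 21.

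The 12 libraries formed 4 groups of 3. The IgG group was the control. The cGAMP group was given 10 µg of cGAMP intravenously in 4 injections, with PBS as the alternative to cGAMP in the protocol. The anti-IL-35 group was given 200 µg of antibody intraperitoneally in 3 injections, and the combination group was given both agents. Every schedule began at day 8 after tumour inoculation and repeated at intervals of 3 days. Mouse strain, age, tumour line and the gate of the sort are not given in the sources used here. Nor do these sources say that each library is a mouse of its own, and the library names within a group share a stem and differ only by a suffix. The p-values below therefore set group differences against the variation between these libraries, and that variation may be technical.

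Neutrophils fill their granules in sequence as they mature in the bone marrow. Primary granules, with myeloperoxidase and serine proteases, are made first, specific granules with lactoferrin and cathelicidin follow, and gelatinase granules come last. The transcription factor C/EBP-epsilon is required for specific granule proteins, and most of these messages are at their highest in bone marrow precursors rather than in circulating cells. NK cells are lymphoid, and these granule proteins are not part of their known cytotoxic machinery.

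Depth ran from 12811353 to 22217766 counts assigned to genes per library. The 10 NK genes listed, Ncr1 among them, had summed levels of 4849 to 5846 CPM (counts scaled to the size of each library) and none was at 0, but other lineages were present too. Over the same libraries 14 genes of mature neutrophils summed to 2447 to 11442 CPM, 5 B cell genes to 2866 to 9458 CPM, and 10 macrophage and monocyte genes to 3069 to 3846 CPM. Of the neutrophil genes G0s2 had 0 counts in the cGAMP and anti-IL-35 libraries, and the others were detected in every group. The B cell sum was lowest with anti-IL-35, at 2899 CPM, against 8400 with IgG, 9374 with cGAMP and 9371 with the combination. The neutrophil sum moved with the 7 granule genes from group to group. The part of these sums in the results was not tested. In libraries of this kind, more neutrophils among the sorted cells and more granule RNA per cell cannot be told apart.

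The upstream sequences of 5 of the genes are shown because several of the genes moved together and factors of the C/EBP family are known to act on some of them. Of the 7 genes, 6 had an entry in the RefSeq promoter table for GRCm38.p6. The 250 bases before the transcription start are given on the strand of the gene, in lower case, with every match to the C/EBP consensus TTGCNNAA on either strand in capitals. The windows are chr9:111019042-111019291 (plus strand) for Ltf, chr9:110419558-110419807 (plus) for Ngp, chr2:32387740-32387989 (minus) for Lcn2, chr9:7558179-7558428 (plus) for Mmp8 and chr9:109849457-109849706 (minus) for Camp, which had no match.
Ltf: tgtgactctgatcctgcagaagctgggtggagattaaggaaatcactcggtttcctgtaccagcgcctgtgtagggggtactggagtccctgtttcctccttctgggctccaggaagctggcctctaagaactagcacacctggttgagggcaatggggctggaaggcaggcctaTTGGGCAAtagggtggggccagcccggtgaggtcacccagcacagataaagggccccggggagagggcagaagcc
Ngp: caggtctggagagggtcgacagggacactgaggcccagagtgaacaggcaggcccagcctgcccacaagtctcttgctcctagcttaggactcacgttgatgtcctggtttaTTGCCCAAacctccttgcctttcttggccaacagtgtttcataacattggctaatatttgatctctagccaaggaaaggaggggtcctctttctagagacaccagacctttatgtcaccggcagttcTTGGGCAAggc
Lcn2: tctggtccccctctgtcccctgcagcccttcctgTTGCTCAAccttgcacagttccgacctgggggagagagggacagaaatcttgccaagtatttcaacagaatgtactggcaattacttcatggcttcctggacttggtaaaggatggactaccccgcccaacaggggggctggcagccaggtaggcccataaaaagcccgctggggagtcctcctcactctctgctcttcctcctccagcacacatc
Mmp8: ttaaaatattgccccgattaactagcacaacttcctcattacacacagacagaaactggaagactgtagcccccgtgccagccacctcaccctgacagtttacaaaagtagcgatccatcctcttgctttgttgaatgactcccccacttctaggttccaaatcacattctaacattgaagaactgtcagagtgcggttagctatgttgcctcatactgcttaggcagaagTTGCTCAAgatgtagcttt
Camp: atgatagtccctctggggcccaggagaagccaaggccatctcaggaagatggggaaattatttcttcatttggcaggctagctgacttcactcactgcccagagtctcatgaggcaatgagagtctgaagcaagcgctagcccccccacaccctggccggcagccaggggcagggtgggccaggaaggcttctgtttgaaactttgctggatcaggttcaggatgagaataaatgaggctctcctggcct
Counting backwards from the start site, Ltf had a match at -75 to -68, Ngp at -138 to -131 and at -11 to -4, Lcn2 at -216 to -209 and Mmp8 at -19 to -12. The motif was thus in 4 of the 6 promoters, and in 9.56% of all 32851 promoters of the table with the same window. GAGGAA, the core of the PU.1 motif, was in 3 of the 6, namely Ltf, Lcn2 and Mmp8, and in 23.3% of all promoters, and none of its matches overlapped a C/EBP match. TATAAA was in 0 of the 6 and in 12.4% of all promoters. A match is a description of the letters and not evidence of binding.

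The genes lie on 3 chromosomes. Camp (gene 12796, chr9:109847377-109849456), Ngp (gene 18054, chr9:110419808-110423012) and Ltf (gene 17002, chr9:111019292-111042766) are close together on chromosome 9, and Mmp8 (gene 17394, chr9:7558429-7568486) is far from them on the same chromosome. Lcn2 (gene 16819, chr2:32384637-32387739) and Mmp9 (gene 17395, chr2:164940326-164955850) are on chromosome 2, and Chil3 (gene 12655, chr3:106147554-106167564) is on chromosome 3. All coordinates are gene bodies in GRCm38.

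Set beside one another per length of exon, most of the granule messages were abundant in the sample. In the IgG libraries Ngp was the highest at 651 ± 7.82 RPKM (CPM divided by exon length in kilobases, SD, n = 3), Camp followed at 326 and Chil3 at 212, then Ltf at 146, Lcn2 at 121, Mmp9 at 81.1 and Mmp8 at 21.1 RPKM. In the anti-IL-35 libraries Ngp reached 2791 RPKM and ranked 5 among 13715 genes with a length, against rank 45 in the IgG libraries. Camp went from rank 115 to rank 14 and Ltf from rank 303 to rank 43. The order at the top and the bottom, Ngp, Camp and then Mmp9 and Mmp8 last, was the same in all 4 groups, while Chil3 lay above Ltf in the IgG and cGAMP libraries and below it in the other groups. In the anti-IL-35 libraries Lcn2 at 558 RPKM and Chil3 at 530 RPKM overlapped between libraries and so were not separated.

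Together the 7 genes took 0.273% ± 0.00493 of all counts in the IgG libraries (SD, n = 3). The share was 0.592% ± 0.000659 in the cGAMP group, 1.04% ± 0.00299 in the anti-IL-35 group and 0.952% ± 0.00236 in the combination group. The groups did not overlap.

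**Figure D1:**
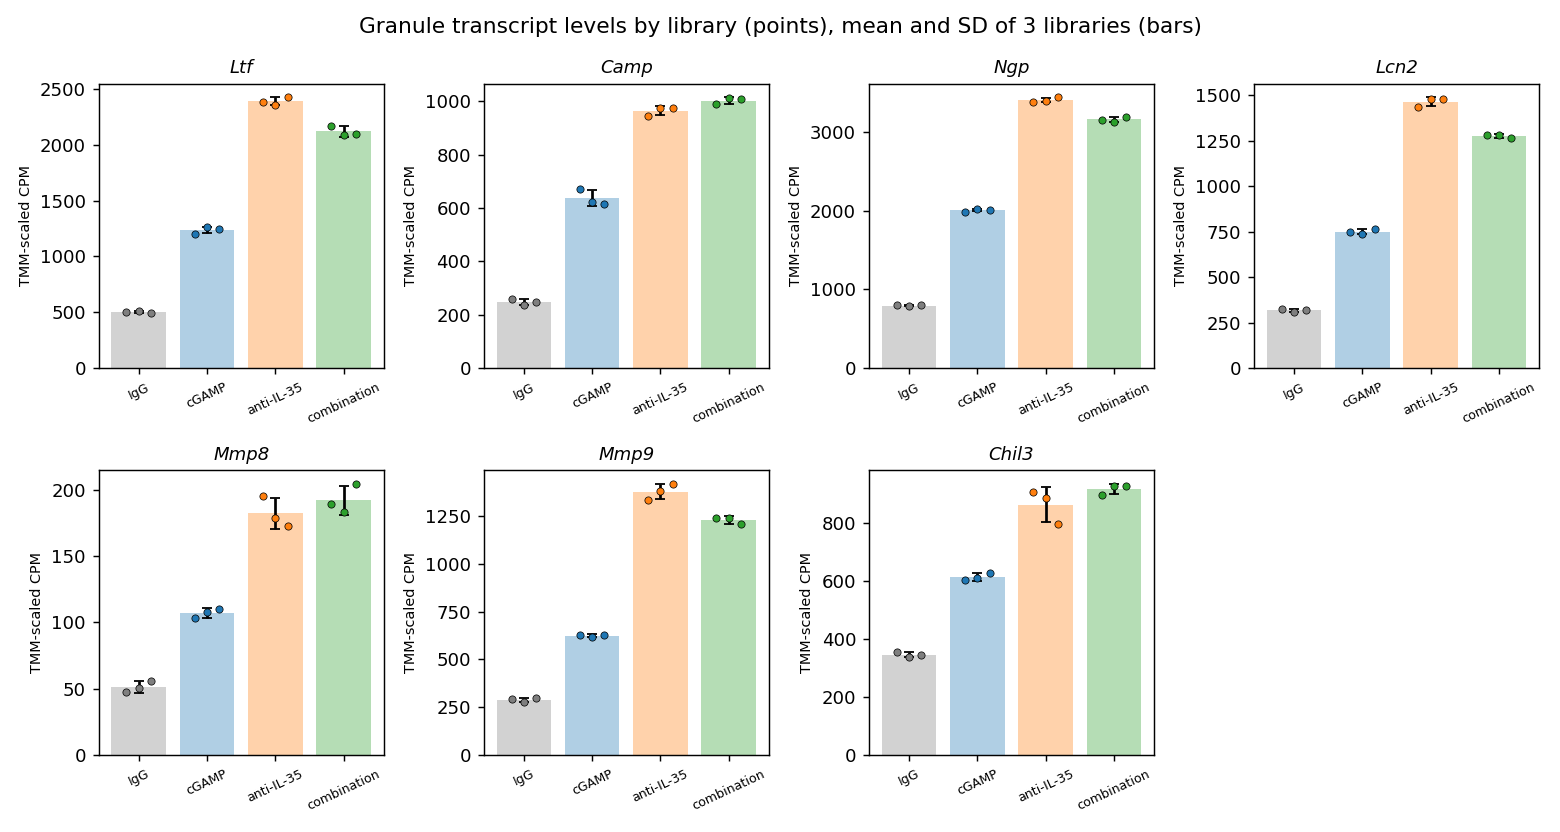
Level of each of the 7 granule genes in TMM-scaled CPM, by treatment group; points are libraries, bars are means of 3 and error bars are SD. Every gene was lowest in the IgG libraries and intermediate in the cGAMP libraries, with the anti-IL-35 and combination libraries above them.

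Among the antimicrobial proteins of the specific granule, Ngp, neutrophilic granule protein, a relative of the cathelicidins known from the mouse, was the most abundant. It stood at 804, 785 and 797 CPM in the IgG libraries, 1992, 2019 and 2013 with cGAMP, 3388, 3397 and 3446 with anti-IL-35, and 3159.7, 3133 and 3199 with the combination. No group overlapped another. Ltf, lactoferrin, an iron-binding glycoprotein that withholds iron from bacteria, was at 505, 512 and 495 CPM in the IgG libraries, 1204, 1265 and 1242 with cGAMP, 2384, 2356 and 2426 with anti-IL-35, and 2172, 2091 and 2095 with the combination. Here too the 4 groups were separate, and the anti-IL-35 libraries were the highest. Camp, the precursor of the mouse cathelicidin peptide, was at 259, 235 and 248 CPM in the IgG libraries, 673, 624 and 615 with cGAMP, 945, 976 and 975 with anti-IL-35, and 989, 1013 and 1008 with the combination. Unlike Ngp and Ltf, it was highest with the combination, by a small margin over anti-IL-35 alone. Lcn2, lipocalin 2, which binds bacterial siderophores, was at 323, 308 and 322 CPM in the IgG libraries, 746, 739 and 764 with cGAMP, 1436, 1479 and 1479 with anti-IL-35, and 1282, 1283 and 1266 with the combination. Its groups were separate in the order of Ltf.

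Mmp9 and Mmp8 are the matrix metalloproteases of the set, gelatinase B of the tertiary granules and the neutrophil collagenase. Mmp9 was at 292, 274 and 295 CPM in the IgG libraries, 627, 617 and 629 with cGAMP, 1335, 1379.9 and 1416 with anti-IL-35, and 1241, 1239 and 1207 with the combination. Mmp8, the least abundant, was at 47.6, 50.2 and 56.0 CPM, then at 103, 108 and 110.3, at 195, 178 and 173, and at 189, 183 and 204 in the same order of groups. Mmp9 was separate in every group, whereas for Mmp8 the anti-IL-35 and combination libraries overlapped.

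Chil3 (Ym1), a chitinase-like lectin without chitinase activity that mouse neutrophils and alternatively activated macrophages both make, was at 354, 337 and 345 CPM in the IgG libraries and 603, 613 and 629 with cGAMP. It was at 910.2, 888 and 796 with anti-IL-35 and at 898, 929.9 and 928 with the combination. Anti-IL-35 replicate 3 was lower than the others of its group, and that group overlapped the combination. Of all member and group combinations Chil3 with anti-IL-35 had the largest spread beyond counting error, with a chi-square of 81.2 per degree of freedom. Over the 28 combinations of gene and group the coefficient of variation ran from 0.722% to 8.35%, with a median of 2.04%. The chi-square per degree of freedom ran from 1.01, near counting error alone, to 81.2, with a median of 5.96.

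All 7 granule genes were higher with cGAMP alone than with IgG, in a comparison where 9.37% of all tested genes were called higher and 3.56% lower at an adjusted p below 0.05 (edgeR's quasi-likelihood test, Benjamini-Hochberg adjustment over all tested genes). The largest changes were in Camp, up 1.36 ± 0.04 on the log2 scale (SE, n = 3 per group, adjusted p = 9.82e-30), and Ngp, up 1.34 ± 0.03 (adjusted p = 2.38e-34). Chil3 changed least, by 0.83 ± 0.04 (adjusted p = 5.55e-21). Ltf rose 2.45-fold and Mmp9 2.17-fold. The median log2 change of the 7 was 1.24, against 0.02 over all tested genes. The groups did not overlap for any of the 7, as for 18.1% of all tested genes in that direction and 11.1% in the other. Erythroid markers were higher in the same comparison, 4 of 5 tested called with a median log2 change of 1.153, and their summed level ranged from 374 to 395 CPM in the IgG libraries, 899.8 to 950.4 with cGAMP, 462 to 475 with anti-IL-35 and 817 to 849.5 in the combination. Their part in the result was not tested.

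With anti-IL-35 alone all 7 genes were higher than with IgG by a wider margin, in a comparison where 15.7% of tested genes were called higher and 9.32% lower. None of the 7 overlapped between groups, as for 20.9% of tested genes higher and 18.7% lower. Mmp9 led with a log2 change of 2.26 ± 0.04 (edgeR adjusted p = 1.35e-40), followed by Ltf at 2.24 ± 0.04 (adjusted p = 2.36e-42) and Lcn2 at 2.20 ± 0.04 (adjusted p = 6.03e-41). Ltf was thus 4.74-fold higher and Mmp9 4.80-fold. Chil3 again changed least, by 1.32 ± 0.04, or 2.50-fold. The median of the 7 was 2.10, against -0.02 over all tested genes. This comparison and those of cGAMP and the combination use the same 3 IgG libraries, so they are not independent of each other.

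With the combination, all 7 genes were also higher than in IgG, where 15.7% of tested genes were called higher and 7.5% lower. None overlapped between groups, as for 21.6% of tested genes in that direction and 17.2% in the other. Ltf rose by 2.07 ± 0.04 on the log2 scale, Camp by 2.02 ± 0.04, Mmp9 by 2.10 ± 0.04 and Mmp8 by 1.91 ± 0.07, with edgeR adjusted p-values of 1.96e-28 or smaller. Chil3 rose by 1.41 ± 0.04. The median was 2.01, against -0.02 over all tested genes. Of 7 eosinophil, mast cell and basophil markers 6 were called higher and 1 lower here, with a median log2 change of 1.07, and their summed level ranged from 123 to 133 CPM in the IgG libraries and from 185 to 191 in the combination. With anti-IL-35 alone 4 were higher (15.7% of all tested genes) and 2 lower (9.32%), with a median of 0.88. The 4 were Siglecf at 1.84, Cpa3 at 1.28, Fcer1a at 1.10 and Mcpt8 at 0.88. The 2 were Ccr3 at -0.56 and Epx at -0.64, so the list did not move as one. The part of these markers in the results was not tested.

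**Figure D2:**
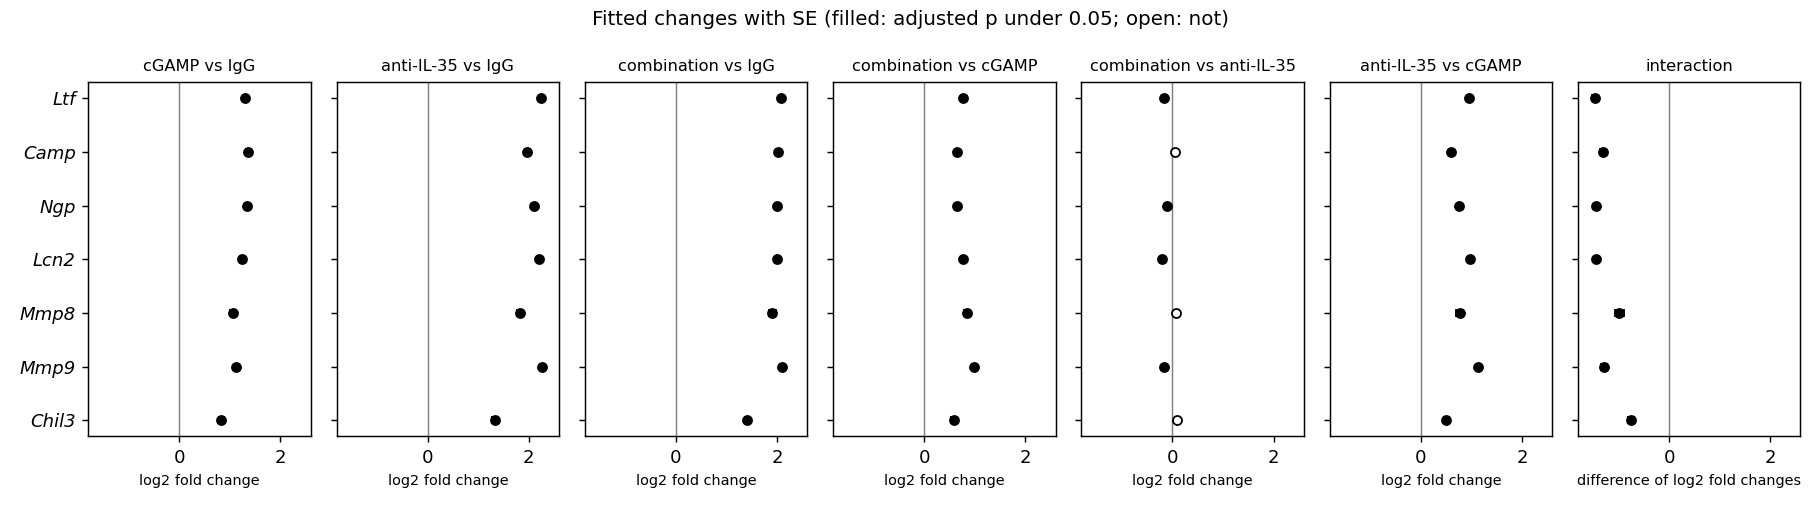
Log2 fold change of each granule gene in each comparison, with its standard error, from edgeR's fit; filled points passed an adjusted p of 0.05, open points did not, and the grey line marks no change. The changes against IgG lie between 0.83 and 2.26, and those of the combination against anti-IL-35 alone lie close to 0.

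Anti-IL-35 and cGAMP alone were compared directly, as were the combination and cGAMP. All 7 genes were higher with anti-IL-35 than with cGAMP (11.5% of tested genes were called higher and 8.51% lower), from 0.49 ± 0.04 for Chil3 to 1.14 ± 0.04 for Mmp9 on the log2 scale. All 7 were also higher with the combination than with cGAMP alone (9.99% of tested genes were called higher and 4.83% lower), from 0.58 ± 0.04 for Chil3 to 0.98 ± 0.04 for Mmp9. The medians were 0.77 in each, against -0.01 and -0.005 over all tested genes. No member overlapped between groups in either comparison, as for 16.5% of tested genes higher and 14.3% lower in the first, and 15.9% higher and 12% lower in the second.

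With cGAMP added to anti-IL-35, some of the granule genes were slightly lower than with anti-IL-35 alone. Of the 7 genes 4 were called lower by edgeR (2.17% of tested genes) and 0 higher (3.67% of tested genes), with Chil3 alone higher at an unadjusted p below 0.05, and DESeq2 also called 4 lower and 0 higher. Lcn2 fell by 0.20 ± 0.04 on the log2 scale (edgeR adjusted p = 8.47e-05), Ltf by 0.17 ± 0.03 (adjusted p = 0.000272), Mmp9 by 0.16 ± 0.04 (adjusted p = 0.00236) and Ngp by 0.11 ± 0.03 (adjusted p = 0.0217). Camp at 0.06 ± 0.04, Mmp8 at 0.08 ± 0.06 and Chil3 at 0.09 ± 0.04 did not pass the test (adjusted p = 0.546, 0.582 and 0.275). Ltf, Ngp, Lcn2 and Mmp9 did not overlap between these groups, each lower with the combination, as for 9.54% of tested genes, and Camp did not overlap in the other direction, as for 10.2%. The Ngp call was lost without anti-IL-35 replicate 2 (adjusted p = 0.0502), without combination replicate 1 (0.0868) and without combination replicate 2 (0.124). Scaling to NK receptor genes turned the 4 lower values to 0.03 for Ltf, 0.10 for Ngp, 0.01 for Lcn2 and 0.04 for Mmp9, none called, and called Camp, Mmp8 and Chil3 higher. That scaling moved the median of all genes in this comparison to 0.21, so the direction of those 4 and the calls of the other 3 depend on the scaling. Relative to it, Ltf, Lcn2, Ngp and Mmp9 were below that median while Camp, Mmp8 and Chil3 were above it.

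Whether the change with cGAMP differed in the presence of anti-IL-35 was tested as the interaction, which is the change from anti-IL-35 alone to the combination minus the change from IgG to cGAMP. All 7 interaction terms were negative and called, where 6.78% of tested genes were called negative and 3.62% positive. They ran from -0.74 ± 0.06 for Chil3 to -1.47 ± 0.05 for Ltf on the log2 scale, with edgeR adjusted p-values of 2.84e-12 or smaller. The change with both agents was thus smaller than the sum of the log2 changes with each agent alone. For Ngp, the separate changes were 1.34 with cGAMP and 2.10 with anti-IL-35, while the combination gave 1.99.

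The composition of the set also shifted. Ngp made up 31.2% ± 0.156 of the summed CPM of the 7 genes in the IgG libraries, 33.6% with cGAMP, 32.0% with anti-IL-35 and 31.9% in the combination. Chil3, by contrast, went from 13.6% ± 0.129 in the IgG libraries to 10.3% ± 0.176 with cGAMP, 8.12% ± 0.608 with anti-IL-35 and 9.28% ± 0.203 in the combination. Mmp9 made up 11.3% in the IgG libraries, 10.4% with cGAMP and 12.9% with anti-IL-35. These shares are given as a description without a test.

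Ratios taken within a library do not depend on its depth or scaling. The summed level of Ltf, Camp, Ngp, Lcn2 and Chil3 was 6.53 times that of Mmp8 and Mmp9 in the IgG libraries, 7.18 with cGAMP, 5.83 with anti-IL-35 and 5.97 in the combination. The groups differed (exact permutation test over the 4 groups, p = 6.49e-05, the smallest this design gives; 0.000195 after Benjamini-Hochberg adjustment over 3 ratios), and no pair of groups overlapped, although 3 libraries against 3 cannot go below p = 0.10. The cGAMP libraries were the highest. Mmp9 made up most of the metalloprotease sum. It was 11.3%, 10.4%, 12.9% and 12.4% of the 7 genes in the same order of groups. Mmp8 was 2.01%, 1.79%, 1.71% and 1.94%, so its share did not follow that of Mmp9. The genes of the other sum did not move alike either. Ltf, Ngp and Lcn2 went from 19.8%, 31.2% and 12.5% with IgG to 22.4%, 32.0% and 13.7% with anti-IL-35. Camp went from 9.70% to 9.06% and Chil3 from 13.6% to 8.12%. The ratio without Chil3 was not tested. The ratio of the 7 genes to S100a8 and S100a9, abundant calcium-binding proteins of the neutrophil cytosol, lay between 1.18 and 1.24 in all groups (exact permutation p = 0.677, adjusted p = 0.677), and the largest difference between group means was 0.07 on the log2 scale.

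**Figure D3:**
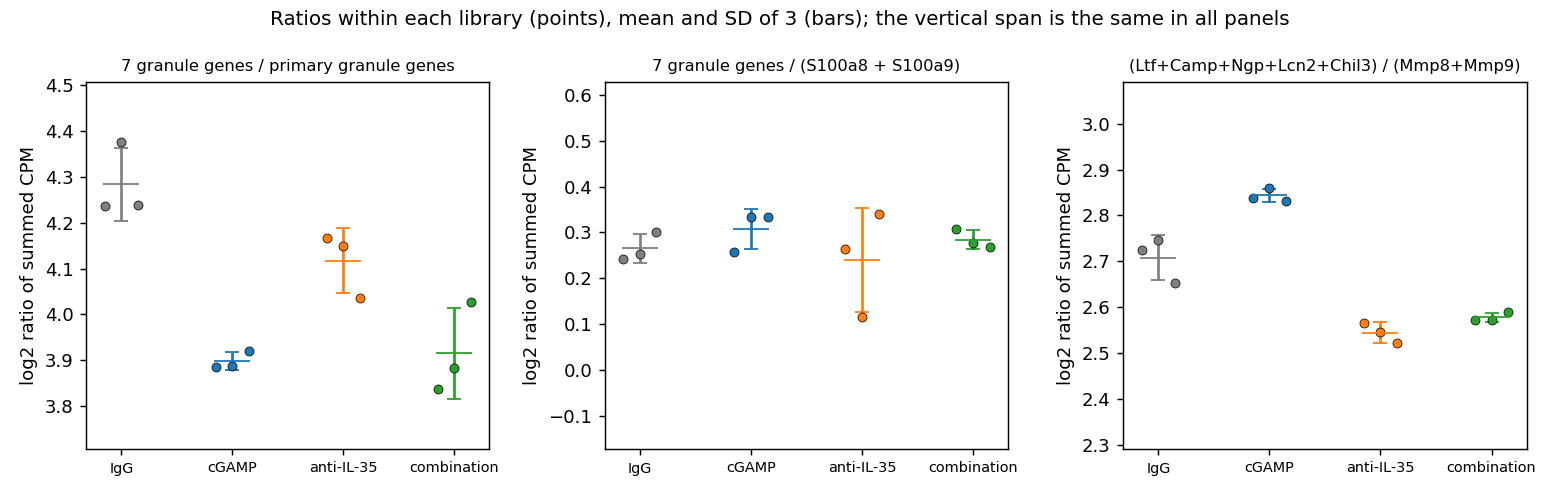
Within-library log2 ratios of the granule genes to other neutrophil messages and of the other 5 members to the metalloproteases Mmp8 and Mmp9, by library; points are libraries, horizontal bars are means of 3 and error bars are SD. The ratio to S100a8 and S100a9 lies between 0.24 and 0.31 in the group means, while the ratio of those 5 genes to Mmp8 and Mmp9 is highest with cGAMP at 2.84.

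The ratio to the 6 primary granule genes was 19.5 in the IgG libraries, 14.9 with cGAMP, 17.4 with anti-IL-35 and 15.1 in the combination (exact permutation p = 0.000974, adjusted p = 0.00146). Only the cGAMP and combination libraries overlapped. This depends on how the genes are averaged: with the mean of the log2 levels in place of the sum, the largest difference between group means was 0.18 in place of 0.39, and the exact permutation test gave p = 0.0914. Mpo, which encodes the enzyme myeloperoxidase, went from 57.3 ± 5.87 CPM (SD, n = 3) in the IgG libraries to 196 ± 5.79 with cGAMP, 296 ± 15.7 with anti-IL-35 and 341 ± 22.9 in the combination.

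The other genes of the granule programme were taken from lists. Against IgG, 9.37% of all tested genes were called higher and 3.56% lower with cGAMP. The shares were 15.7% and 9.32% with anti-IL-35, and 15.7% and 7.5% with the combination. Of 17 tested genes of the other specific and gelatinase granule list (18 listed, with Ptx3 at 0 counts in all libraries), 14 were higher and 0 lower with cGAMP, with a median log2 change of 0.62, and 17 higher with anti-IL-35, median 1.29, and with the combination, median 1.08. Cd177, a surface protein of neutrophils that specific granules carry, rose by 2.09 ± 0.04 with anti-IL-35, Hp, haptoglobin, by 1.78 ± 0.04, Pglyrp1, which binds bacterial peptidoglycan, by 1.41 ± 0.05 and Adam8, a metalloprotease, by 1.47 ± 0.06. With cGAMP the same 4 genes rose by 1.22, 0.80, 0.62 and 0.55 (edgeR adjusted p = 1.06e-09 or smaller). These 4 had the smallest p of the list with anti-IL-35. Over the 17 tested genes the changes with anti-IL-35 ran from 0.22 for Cyba to 2.30 for Mmp25. Itgb2 at 0.30, Lyz2 at 0.36 and Cybb at 0.38 were the lowest after Cyba.

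Among the 8 regulators of granule genes, 5 were higher and 1 lower with cGAMP, 6 higher with anti-IL-35 and 7 higher with the combination, with median log2 changes of 0.29, 1.22 and 1.20. Over all tested genes the shares called higher and lower were 9.37% and 3.56%, then 15.7% and 9.32%, then 15.7% and 7.5%. Cebpe, which encodes C/EBP-epsilon, rose by 1.27 ± 0.12 with cGAMP, 1.87 ± 0.11 with anti-IL-35 and 1.95 ± 0.11 in the combination. Cebpd rose by 0.92, 1.96 and 1.77 in the same comparisons, and Csf3r, the receptor for the growth factor G-CSF, by 0.76, 2.04 and 1.69. Spi1, which encodes PU.1, rose by 0.29, 1.09 and 1.02, and with scaling to NK receptor genes the cGAMP value was 0.16 and not called (adjusted p = 0.226). Cebpa fell by 0.30 with cGAMP (adjusted p = 0.00458) and was 0.25 higher with the combination (adjusted p = 0.0121). Gfi1, a repressor needed for granulocyte development and also made by lymphocytes, was not called in any of the 3, with values of 0.21, 0.16 and 0.15.

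Receptors, inhibitors and relatives of the members moved less uniformly. Of 8 tested genes (11 listed), 4 were higher and 1 lower with cGAMP, 4 higher and 1 lower with anti-IL-35, and 4 higher with the combination, with median log2 changes of 0.44, 0.71 and 0.65. In the same order, 9.37%, 15.7% and 15.7% of all tested genes were called higher and 3.56%, 9.32% and 7.5% lower. Chil1, a chitinase-like relative of Chil3, was at 58.4, 57.1 and 52.9 CPM in the IgG libraries, 83.2, 87.2 and 86.7 with cGAMP, 305, 313 and 317 with anti-IL-35, and 154, 167 and 160.2 with the combination. Its groups were all separate, and it was 0.96 ± 0.05 lower on the log2 scale with the combination than with anti-IL-35 alone (edgeR adjusted p = 1.63e-19). The gene called lower with cGAMP was Timp1, an inhibitor that binds MMP9, at only 12, 14 and 17 counts in the IgG libraries and 2, 0 and 0 counts in the cGAMP libraries. Fpr2, a formyl peptide receptor that also binds the cathelicidin peptide, rose by 0.97, 1.79 and 1.47 in cGAMP, anti-IL-35 and combination against IgG, and Lbp, which carries bacterial lipopolysaccharide, by 0.90, 1.79 and 1.61. Lrp1, an endocytic receptor that takes up lactoferrin and MMP9 complexes, fell by 0.39 ± 0.05 with anti-IL-35 (adjusted p = 9.97e-10) and was not called with cGAMP (-0.06) or with the combination (-0.03). Scaled by library totals alone, it was called lower in those as well, at -0.17 and -0.19. Of 10 macrophage and monocyte genes, 8 were called lower with anti-IL-35 (9.32% of tested genes) and 1 higher (15.7%), with a median of -0.41. Their part in the Lrp1 change was not tested.

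**Figure D4:**
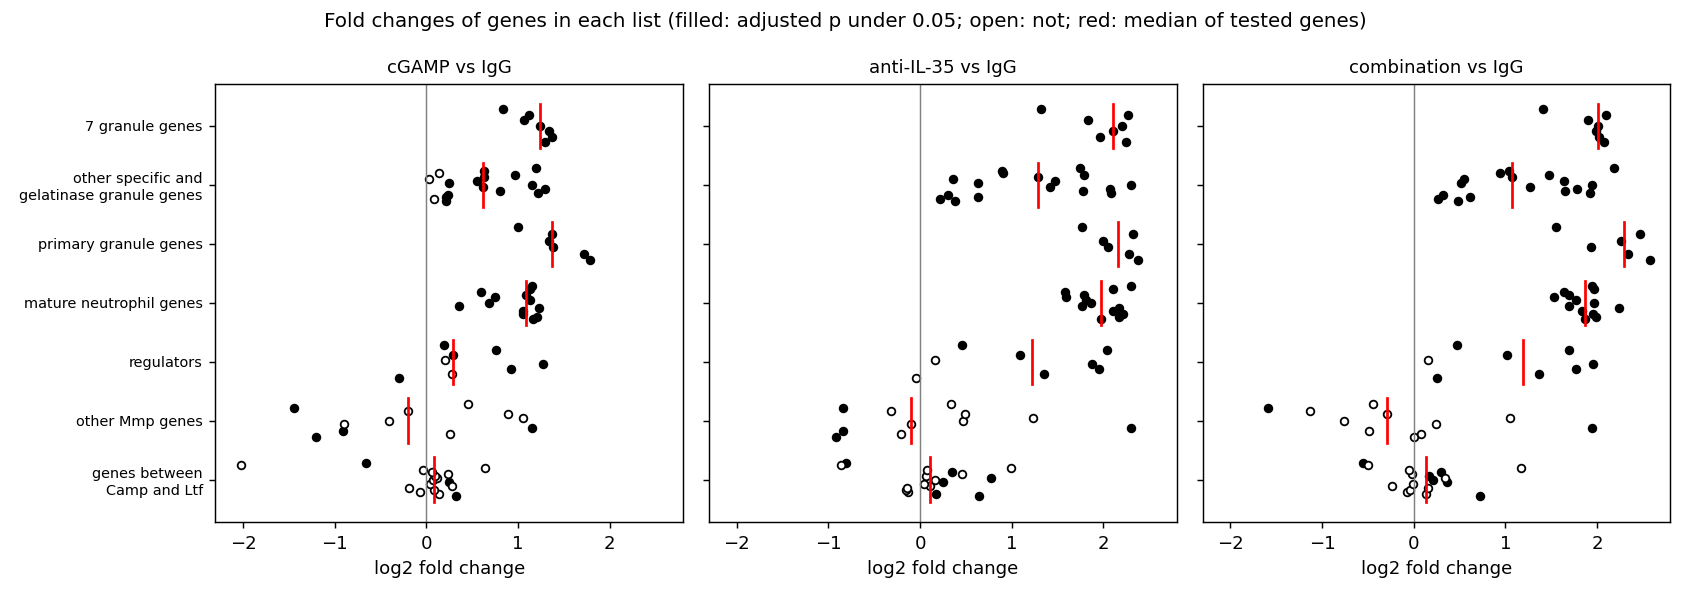
Log2 fold change against IgG of every tested gene in the granule, mature neutrophil and regulator lists, the other Mmp genes and the genes between Camp and Ltf; each point is a gene, filled where the adjusted p was below 0.05, and red bars are list medians. The primary granule and mature neutrophil lists have medians of 1.37 and 1.08 with cGAMP and 2.16 and 1.97 with anti-IL-35, while the genes between Camp and Ltf have medians of 0.08 and 0.11.

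Primary granule and mature neutrophil genes were also higher. Mmp25 is in both the mature neutrophil list and the list of other specific and gelatinase granule genes, and Fpr2 in the latter and in that of receptors, so each counts under both. All 6 primary granule genes were higher in each comparison with IgG, with median log2 changes of 1.37, 2.16 and 2.30, and all 13 tested mature neutrophil genes were higher, with medians of 1.08, 1.97 and 1.87. Of all tested genes 9.37%, 15.7% and 15.7% were called higher in these comparisons. Elane, neutrophil elastase, rose by 1.71, 2.28 and 2.33 in the same order of comparisons. The serine proteases Prtn3 and Ctsg rose by 2.05 and 1.99 with anti-IL-35. Cxcr2, the receptor through which neutrophils follow chemokines, rose by 1.06, 2.22 and 1.96, and Retnlg, a resistin-like protein, by 1.23, 2.17 and 2.24. S100a9 and Wfdc21 rose by 2.17 and 2.10 with anti-IL-35. The summed mature neutrophil level went from 2499 ± 66.7 CPM in the IgG libraries to 5593 ± 122 with cGAMP, 10605 ± 758 with anti-IL-35 and 9581 ± 125 in the combination.

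Lcn2 and Chil3 are also made outside neutrophils, and the levels of such sources are given here. Of 8 ductal and tumour epithelial genes, the summed level was between 21.1 and 34.8 CPM in all libraries, while Lcn2 was between 308 and 1479 CPM. The 6 alternative macrophage genes, which share no member, summed to 335 ± 6.13 CPM in the IgG libraries, 350.4 ± 20.8 with cGAMP, 224 ± 6.01 with anti-IL-35 and 298 ± 6.96 in the combination, and Chil3 was higher than in IgG in all 3 treated groups. Of these 6 genes, 2 were called higher and 2 lower with cGAMP (9.37% and 3.56% of all tested genes). With anti-IL-35 0 were higher and 2 lower (15.7% and 9.32%), and with the combination 0 and 1 (15.7% and 7.5%). Their log2 changes with anti-IL-35 ran from -1.56 to 0.24. Retnla, a marker of those macrophages, was the highest and was not called. It was at 1.62 ± 0.175 CPM in the IgG libraries and 1.91 ± 0.853 with anti-IL-35. Neither source was tested for its part in the Lcn2 and Chil3 changes.

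The genes whose pattern over the 12 libraries was most like the mean of the members were found among 10473 genes at 5 CPM or more, by the root mean square difference of log2 levels after centring. Cd177 was the closest at 0.0495, then S100a9 at 0.0758, Itgb2l, an integrin beta chain, at 0.0809 and S100a8 at 0.0892. Wfdc21 at 0.101, Trem3, a myeloid receptor, at 0.103, Igf1r at 0.107, Il1f9 at 0.111 and Cd101 at 0.114 completed the 10 with H2-Q10. Of the members themselves Ngp was the closest to the mean at 0.0601 and Chil3 the farthest at 0.252. H2-Q10 at 0.103 is a class I gene with near-identical relatives and its counts are uncertain.

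Camp, Ngp and Ltf lie within one stretch of chromosome 9, and the genes between Camp and Ltf were examined after the members' values had been seen. Leaving out Ngp, which also lies there, the count table held 29 such genes, of which 17 were tested. With anti-IL-35, 5 were called higher (15.7% of all tested genes) and 1 lower (9.32%), with a median log2 change of 0.11. With cGAMP 2 were higher (9.37% of all tested genes) and 1 lower (3.56%), with a median of 0.08. Nbeal2, a gene of granule formation in platelets and neutrophils, was among those that rose with anti-IL-35, by 0.34 ± 0.04. Kif9 and Cdc25a rose more, by 0.78 ± 0.28 and 0.64 ± 0.10. The other matrix metalloprotease genes were taken by name in the same way: the table held 21, of which 11 were tested. With anti-IL-35, 1 was higher (15.7% of all tested genes) and 3 were lower (9.32%), with a median of -0.10. Mmp25, a membrane-bound neutrophil metalloprotease, was the one that rose, by 2.30 ± 0.10, and Mmp12, a macrophage elastase, fell by 0.84 ± 0.26. Mmp14 and Mmp19 were the others that fell, by 0.84 and 0.91.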

How the data were processed

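RNA was extracted from sorted tumour NK cells and sequenced from NEBNext libraries, per the labels' protocols. Reads were processed with STAR 2.7.7a, SAMtools 1.15 and featureCounts against mm10, per the submitters' processing notes, and the authors deposited whole-number counts per gene; strand handling is not given in the sources used here, so overlapping genes may share reads. Identifiers without a symbol (1049) held 0.251% of counts. The counts were fitted with edgeR 4.0.16 (R 4.3.3, limma 3.58.1) over all 12 libraries with TMM scaling, filterByExpr at a minimum count of 10 and a robust quasi-likelihood test, with Benjamini-Hochberg adjustment over 14182 genes; DESeq2 1.42.0 was an alternative. The step was tested on simulated data. CPM use TMM-scaled library sizes, and RPKM use GENCODE M21 exon-union lengths. Ratios were tested by exact permutation of libraries over the 4 groups (369600 assignments). The members and lists were chosen with earlier results of these data known. Genes named from each list were the 4 with the smallest p in anti-IL-35 against IgG. Any called there in the direction opposite to the members were named too. Others were named after their values were seen (Cebpa, Gfi1, Timp1, Retnla, Mmp12, Mmp14, Mmp19, Mmp25, Nbeal2, Kif9, Cdc25a, Cyba, Itgb2, Lyz2, Cybb, Ccr3, Epx, Siglecf, Cpa3, Fcer1a, Mcpt8). Same-numbered replicates of different groups did not deviate together (correlations of -0.0247 to 0.038), so no pairing was used. Within a group, the chi-square of counts was 3.23 to 11.3 times its degrees of freedom, so libraries differed by more than counting error. This cannot tell separate animals from separate preparations of one RNA sample.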

Additional observations from a re-analysis of the deposited data

Results flagged for a closer look

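The change in granule genes with cGAMP differed between the presence and absence of anti-IL-35 for all 7 genes by the test of the difference itself (edgeR's quasi-likelihood interaction term, n = 3 per group), where 6.78% of all tested genes were called negative and 3.62% positive. On the log2 scale the difference was -1.47 for Ltf (adjusted p = 1.21e-28), -1.44 for Ngp (adjusted p = 1.08e-29), -1.44 for Lcn2 (adjusted p = 4.73e-27), -1.31 for Camp (adjusted p = 2.62e-23), -1.28 for Mmp9 (adjusted p = 2.78e-24), -0.98 for Mmp8 (adjusted p = 2.84e-12) and -0.74 for Chil3 (adjusted p = 4.20e-14). The mature neutrophil genes showed the same sign, with 13 of 13 tested called negative and a median of -1.17, and their part in the result was not tested.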

How the results depend on the processing

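Each result was recomputed with other scaling, filters, tests and samples, the last by leaving out each library in turn. Of 1022 combinations of a member's fold change and an alternative, 1010 kept direction and side of the threshold, including all 875 outside the comparison of the combination with anti-IL-35. In that comparison the number of members called was 3 or 4 when a library was left out, against 4 with all. It was 3 with a replicate block and with the groups compared alone. Scaling to NK receptor genes also gave 3, but these were other genes, Camp, Mmp8 and Chil3, all called higher. Ngp was not called there with the replicate block (adjusted p = 0.0516) or with the groups compared alone (adjusted p = 0.0951). Replicate numbers were not linked in the data, so the block is only a check, and with it the 3 within-library ratios gave exact permutation p-values of 0.00868, 0.701 and 0.00174. Scaling to NK receptor genes reversed the sign of Ltf (0.034, adjusted p = 0.727), Ngp (0.10, adjusted p = 0.234), Lcn2 (0.0089, adjusted p = 0.936) and Mmp9 (0.041, adjusted p = 0.689) in combination against anti-IL-35, and of Lrp1 in combination against IgG (0.18). It also raised the calls over all genes from 829 to 3333 there, from 2102 to 6893 in combination against cGAMP and from 1475 to 3781 in the interaction, and moved the median log2 change of all genes to 0.34 in combination against cGAMP. The split of all calls between higher and lower depended on scaling: with anti-IL-35 against IgG it was 2220 to 1322, and 1472 to 3125 with library totals alone; with cGAMP against IgG it was 1329 to 505, against 601 to 1277 with library totals and 396 to 929 with NK receptor scaling; with the combination against IgG it was 2224 to 1064, against 1360 to 3370 and 4410 to 192. All 7 members were called higher in these 3 comparisons under both scalings. Leaving out 298 immunoglobulin and other neutrophil genes, an alternative chosen after seeing the data, changed no count of members called. With the mean of log2 levels the ratio to primary granule genes spanned 0.18 (exact permutation p = 0.0914); the cause was not tested. SDs cover the spread between 3 libraries, while the SEs of fold changes come from edgeR's fit over all 12 libraries. Depth limits Timp1 and Chil4, each with few counts.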
